A study of Mus musculus with 12 samples.

Results

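The genes described here are 51 genes of distal mouse chromosome 16, from Ncam2 to Mx2 in map order, most of which had higher levels in pEGFR-Hi glioma cells than in pEGFR-Lo glioma cells. They were listed as a block of neighbouring genes because of this difference between the tumor types, so the difference itself is described without a test. All 51 were measured, out of 19938 genes with a probe set of their own on the array, and the brightest probe set by its mean over the 12 arrays stood for each gene. The 51 genes were on average higher in pEGFR-Hi in 43 cases and lower in 8, with a median difference of 0.69 on the log2 scale, equal to a 1.62-fold ratio. Over all 19938 genes the median difference was 0.01.

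Glioma cells were collected from the brains of FVB mice, 6 carrying pEGFR-Hi and 6 carrying pEGFR-Lo tumors, and RNA of each mouse was hybridised to 1 array. Both tumor types came from neural progenitor cells taken from the subventricular zone, in mice without Ink4a/Arf that lack a pair of tumor suppressors encoded at that locus, and both had received human EGFRvIII, a shortened and constitutively active form of the epidermal growth factor receptor. Each tumor type was a single cell line derived from 1 shared pool of parental cells, tagged with the green fluorescent protein ZsGreen and selected by passage as a brain tumor, with high or low phosphorylation of the receptor. Mice were injected with 2 µl at 200000 cells per µl, and tumor cells were sorted from dissociated brains close to the median survival time of their tumor type. That time came sooner with pEGFR-Hi, so receptor activity, cell line and time after injection cannot be told apart, and the 6 mice of a group measure the spread between tumors of 1 line. No ages of the mice, no record of array batches and no DNA copy number were used here.

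Array medians lay between 4.81 and 4.88, and values at or below 4.10 were taken as background, a limit that 95% of 1027 olfactory receptor genes did not pass. All 8 markers of neural progenitor or glioma cells were above background, with mean levels per mouse of 8.39 to 8.67 in pEGFR-Hi and 8.65 to 8.74 in pEGFR-Lo. Single markers of this list differed by -1.37 to 1.05, with 1 called higher in pEGFR-Hi and 1 called lower. Over all genes 3.99% and 5.06% were called in these directions. Of 8 markers of microglia and macrophages, 4 were above background, and Ptprc, Csf1r, Aif1 and Itgam were not. Of the 4 above it, Cd68 was called higher in pEGFR-Hi at 1.24, P2ry12 was called lower at -1.75, and Cx3cr1 and Tyrobp were at 0.15 and -0.24. The part of such cells in the differences was not tested. The mean level of the 8 markers was 4.07 to 4.25 in pEGFR-Hi and 4.08 to 4.54 in pEGFR-Lo. Of 7 endothelial markers, Flt1 and Cldn5 were above background, at differences of 0.83 and -0.18, and Pecam1, Cdh5, Kdr, Tek and Emcn were not, with list means of 3.53 to 4.06 in pEGFR-Hi and 3.59 to 3.96 in pEGFR-Lo. The means of the lists for mature oligodendrocytes, mature neurons and T cells did not exceed 4.79 in any mouse. Single markers were still above background: 4 of 6 for neurons, 1 of 4 measured for oligodendrocytes and 2 of 4 measured for T cells. None of these lists held a called gene. The neuron markers differed by -0.82 to 0.18, and for 1 of them all pEGFR-Lo mice were above all pEGFR-Hi mice, as for 11.1% of all genes. In such bulk RNA, fewer cells of a type and less RNA per cell cannot be told apart.

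Distal mouse chromosome 16 carries, in nearly the same order, genes that lie on human chromosome 21 in people, and mouse models of Down syndrome are built with an extra copy of this stretch. Gene dosage is the usual frame for such genes: when a stretch of chromosome is gained or lost, the RNA of most expressed genes on it changes by about the ratio of the copies, while single genes depart from that ratio through their own regulation. The stretch holds genes of very different work. Among them are the receptor chains for type I and type II interferons, the superoxide dismutase Sod1, the amyloid precursor App, the kinase Dyrk1a, the transcription factors Runx1 and Ets2, and genes for mitochondria, chromatin and protein assembly.

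The members followed each other along the chromosome with differences of unequal size. The first was Ncam2, a neural cell adhesion molecule, and it ran against the others. Its log2 values were 4.63 to 5.29 in pEGFR-Hi mice, with a median of 4.88, and 5.91 to 7.30 in pEGFR-Lo mice, with a median of 6.58. All pEGFR-Hi mice lay below all pEGFR-Lo mice, and the means differed by -1.69 ± 0.21 (SE, n = 6 per group), with pEGFR-Lo 3.22-fold higher. Next in order came Jam2, a junctional adhesion molecule, at 0.38, with overlapping groups. Atp5j, a coupling subunit of the mitochondrial ATP synthase, differed by 0.73 and its neighbour Gabpa, the DNA-binding chain of the ETS-family factor GABP, by 0.92, and in both the groups did not overlap.

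App encodes the precursor of the amyloid peptide and sits in the same stretch with no such difference. It measured 9.37 to 9.83 in pEGFR-Hi mice, with a median of 9.73, against 9.54 to 9.90 in pEGFR-Lo mice, with a median of 9.69. The groups overlapped almost completely and the means differed by -0.03 ± 0.09 (SE). Cyyr1, a membrane protein gene, was not above background in either group and gives no information on the stretch.

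From N6amt1 to Bach1 the differences were again mostly positive. The methyltransferase gene N6amt1 was higher in pEGFR-Hi by 0.58, the ribosome quality control ligase Ltn1 by 0.76, the histone deubiquitinase Usp16 by 0.84, the chaperonin subunit Cct8 by 0.35 and the heme-sensing repressor Bach1 by 0.29. Groups overlapped for N6amt1 and Bach1 and did not for Ltn1, Usp16 and Cct8. Between Cct8 and Bach1, Map3k7cl was the other member that was strongly higher in pEGFR-Lo. Its values were 3.74 to 4.46 in pEGFR-Hi, with a median of 4.14, and 5.24 to 6.19 in pEGFR-Lo, with a median of 5.59. The groups stood apart by a mean of -1.49 ± 0.15 (SE), and the pEGFR-Hi mean lay just above background.

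Tiam1, an activator of the GTPase Rac, opened the next run at 0.78. Sod1, the cytosolic superoxide dismutase, was one of the tightest members. It measured 11.36 to 11.50 in pEGFR-Hi mice, with a median of 11.43, and 10.77 to 10.92 in pEGFR-Lo mice, with a median of 10.83. The groups did not overlap and differed by 0.59 ± 0.07 (SE), a 1.51-fold ratio. Scaf4, which restrains early transcript termination, differed by 1.16, while the kinase gene Hunk, with overlapping groups, differed by -0.14.

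A pair of larger differences followed. Mis18a, part of the complex that prepares centromeres for their histone variant, was 7.93 to 8.42 in pEGFR-Hi mice, with a median of 8.20, and 5.73 to 6.27 in pEGFR-Lo mice, with a median of 6.11. Every pEGFR-Hi mouse was well above every pEGFR-Lo mouse, by a mean of 2.09 ± 0.11 (SE), or 4.27-fold. Urb1, needed to make the large ribosomal subunit, differed by 1.53. Eva1c, a Slit-binding receptor, was above background only in pEGFR-Hi, at least 1.18-fold higher there, with overlapping groups. The phosphoinositide phosphatase Synj1 differed by 0.17 with overlapping groups, and Paxbp1, whose protein binds Pax transcription factors, by 1.16 without overlap.

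The 4 cytokine receptor genes lie next to each other. Ifnar2 and Ifnar1 encode the chains of the type I interferon receptor, Il10rb a chain shared by the receptors for interleukin 10 and type III interferons, and Ifngr2 the second chain of the interferon gamma receptor. Ifnar1 was 8.04 to 8.43 in pEGFR-Hi mice, with a median of 8.25, and 7.47 to 7.73 in pEGFR-Lo mice, with a median of 7.57. For all 4 genes every pEGFR-Hi mouse was above every pEGFR-Lo mouse, by 0.37 for Ifnar2, 0.69 for Il10rb, 0.69 for Ifnar1 and 0.76 for Ifngr2. These differences were equal to ratios of 1.29-fold to 1.70-fold.

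After the receptors came Tmem50b, a membrane protein gene, at 0.64, and Gart, which encodes an enzyme with several activities in purine synthesis, at 1.03. Son, a splicing cofactor, measured 8.68 to 8.90 in pEGFR-Hi mice, with a median of 8.79, and 7.67 to 8.29 in pEGFR-Lo mice, with a median of 8.16. Donson, a replication fork protein whose annotated span overlaps that of Son, measured 6.87 to 7.26 in pEGFR-Hi mice, with a median of 7.05, and 4.61 to 5.19 in pEGFR-Lo mice, with a median of 4.89. Neither gene overlapped between groups. The difference was 0.69 ± 0.10 (SE) for Son and 2.15 ± 0.11 (SE) for Donson, so adjacent genes differed by 1.62-fold and 4.42-fold.

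Cryzl1, a quinone reductase relative, differed by 1.01, the endocytic scaffold Itsn1 by 0.30 and Atp5o, a stalk subunit of the ATP synthase, by 0.67. Slc5a3, the sodium-coupled myo-inositol transporter, and Mrps6, of the small subunit of mitochondrial ribosomes, overlap each other in the annotation and differed by 1.02 and 0.52. Rcan1, an inhibitor of the phosphatase calcineurin, differed by 0.46. Groups overlapped for Itsn1 and Rcan1 and did not for the other members of this run.

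Runx1, the DNA-binding chain of a core-binding factor with known roles in blood formation, had one of the largest differences. It was 8.01 to 8.34 in pEGFR-Hi mice, with a median of 8.21, and 5.05 to 6.13 in pEGFR-Lo mice, with a median of 5.69. The groups were far apart, by a mean of 2.53 ± 0.16 (SE), or 5.76-fold. Setd4, a methyltransferase gene, followed at 0.26 with overlapping groups.

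The carbonyl reductases Cbr1 and Cbr3 are close relatives and map neighbours, and they did not behave alike. Cbr1 was 7.84 to 8.22 in pEGFR-Hi mice, with a median of 8.07, and 5.40 to 7.11 in pEGFR-Lo mice, with a median of 6.53. Cbr3 was 8.38 to 9.03 in pEGFR-Hi mice, with a median of 8.84, and 8.81 to 9.21 in pEGFR-Lo mice, with a median of 8.89. The Cbr1 groups stood apart by 1.73 ± 0.25 (SE) although the pEGFR-Lo mice spread widely, and the Cbr3 groups overlapped with a difference of -0.15 ± 0.11 (SE).

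Morc3, a nuclear ATPase that binds histone marks, differed by 1.36. Next to it Chaf1b, the middle subunit of the chromatin assembly factor CAF-1, had the largest difference of the members outside the Mx genes. It was 8.04 to 8.33 in pEGFR-Hi mice, with a median of 8.21, and 5.02 to 5.81 in pEGFR-Lo mice, with a median of 5.28. No values overlapped, and the means differed by 2.85 ± 0.12 (SE), or 7.20-fold. Hlcs, which attaches biotin to carboxylases, was above background only in pEGFR-Hi and at least 1.37-fold higher there.

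Ttc3, a ubiquitin ligase gene, was the third member with all pEGFR-Lo mice above all pEGFR-Hi mice. It measured 7.75 to 8.25 in pEGFR-Hi mice, with a median of 8.05, and 8.41 to 8.75 in pEGFR-Lo mice, with a median of 8.50, a difference of -0.54 ± 0.10 (SE). Its neighbour Dyrk1a, a kinase with strong dosage effects in brain, went the other way. Dyrk1a was 8.95 to 9.23 in pEGFR-Hi mice, with a median of 9.06, and 8.01 to 8.46 in pEGFR-Lo mice, with a median of 8.32, and the groups did not overlap. The difference was 0.82 ± 0.09 (SE), and a second and dimmer Dyrk1a probe set gave 0.13.

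The last members were Ets2, an ETS-family transcription factor, at 1.74, the proteasome assembly chaperone Psmg1 at 1.21, the bromodomain gene Brwd1 at 0.90, the nucleosome-binding gene Hmgn1 at 0.51 and the beta-secretase relative Bace2 at -0.06. Psmg1 was 8.64 to 8.81 in pEGFR-Hi mice, with a median of 8.72, and 7.36 to 7.65 in pEGFR-Lo mice, with a median of 7.55. Ets2, Psmg1, Brwd1 and Hmgn1 had separate groups and Bace2 did not. Mx1 and Mx2, antiviral GTPases that interferon induces, close the stretch and are described with the other interferon genes.

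**Figure D1:**
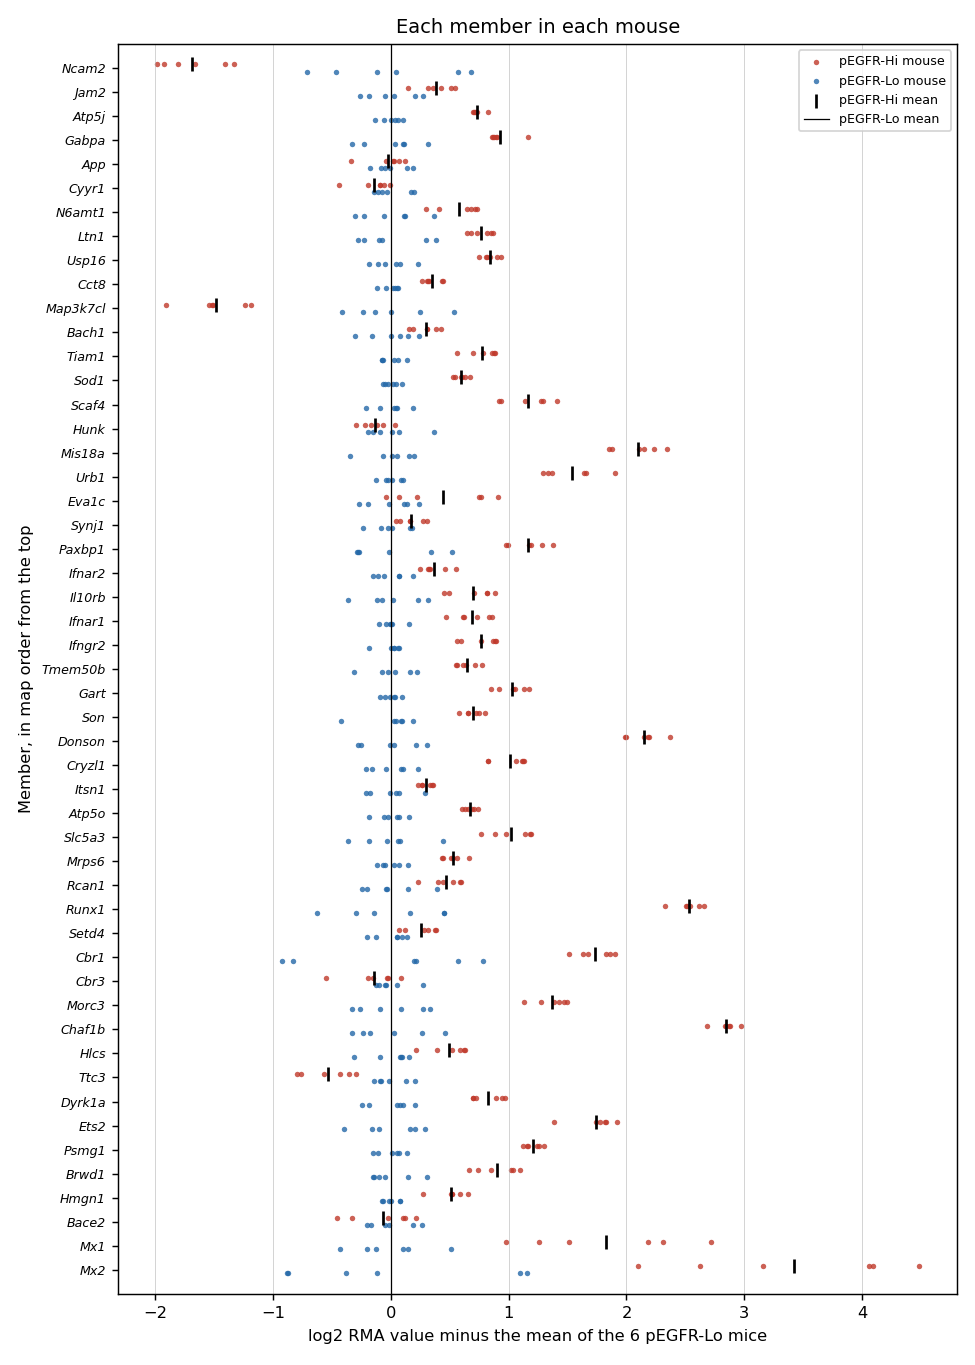
Value of each of the 51 members in each of the 12 mice, as the log2 RMA value minus the mean of the 6 pEGFR-Lo mice (horizontal axis), with members in map order from top to bottom; red points are pEGFR-Hi mice, blue points pEGFR-Lo mice, black ticks the pEGFR-Hi means and the vertical line the pEGFR-Lo mean. Most red points lie to the right of the blue ones, Ncam2, Map3k7cl and Ttc3 lie to the left, and App, Cyyr1, Hunk, Cbr3 and Bace2 show no separation.

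The plot of every member in every mouse shows both features of the stretch, a common side and unequal distances. For 35 of the 51 members every pEGFR-Hi mouse was above every pEGFR-Lo mouse, against 12.2% of all genes, and for 3 the order was turned, against 11.1%. Under the limits used for the whole array, a limma adjusted p under 0.01 and at least a 2-fold ratio, 16 members were called higher in pEGFR-Hi, where 3.99% of all genes were, and 2 higher in pEGFR-Lo, where 5.06% were. These members were chosen on this contrast, so nothing is read from their counts against those shares. The quartiles of the 51 differences were 0.36 and 1.09.

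The members were also grouped by what they do, with roles given once the values were known. The 9 chromatin and chromosome proteins had higher means in pEGFR-Hi by 0.26 to 2.85, with a median of 0.90. Of these 4 were called and 7 had separate groups. The 3 genes of RNA and ribosome processing differed by 0.69 to 1.53, with 2 called. The 5 transcription factors and regulators had a median of 1.16, with 3 called. The 3 genes for mitochondrial proteins lay close together, at 0.52 to 0.73, with none called. The 7 metabolic enzymes and transporters differed by -0.15 to 1.73, with 4 called.

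Several roles held genes on both sides. Of 5 adhesion and membrane genes 3 were higher in pEGFR-Hi and 2 lower, among the latter Cyyr1, which was not above background. Of 5 kinases and signaling regulators 3 were higher, with none called, and 2 lower, with Map3k7cl called. Of 4 genes of protein folding, assembly and turnover 3 were higher, with Psmg1 called, and Ttc3 was lower. Neither App nor Bace2, the amyloid precursor and its protease relative, was higher in pEGFR-Hi. The endocytic genes Itsn1 and Synj1 were at 0.30 and 0.17, both with overlapping groups.

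The list holds 50 of the genes above background in this stretch, so the stretch was read again with every measured gene in it. Of 76 genes above background between Ncam2 and Mx2, members included, 58 were higher in pEGFR-Hi and the median difference was 0.55. The 26 that are no members had a median of 0.22, and 15 were higher. These 26 are what remained once members had been chosen on this contrast, so their median is a description and not a measure of how far neighbours share the difference. Some lay close to background, such as Mrap, Kcnj15 and Krtap11-1 with mean levels of 4.19, 4.22 and 4.30. For 5 of the 26 every pEGFR-Hi mouse was above every pEGFR-Lo mouse, against 12.2% of all genes, and for 6 the order was turned, against 11.1%. Among the 6 were Olig1 at -0.65 and 2310079G19Rik at -0.355, neither of them called. By limma, 1 of the 26 was called higher in pEGFR-Hi, Cfap298, a cilia gene, at 1.18, and 4 were called higher in pEGFR-Lo. Over all genes 3.99% and 5.06% were called in these directions. Of the 4, Dscam, a neuronal adhesion molecule, and Pcp4, a calmodulin regulator, were not above background in pEGFR-Hi and were at least 5.48-fold and 2.03-fold higher in pEGFR-Lo. The other two were the protease gene Adamts5 at -1.07 and the hair protein gene Krtap7-1 at -1.01. A further 47 genes there were not above background and had a median of -0.03, among them most of 21 keratin-associated protein genes.

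The positive side also ran beyond the listed genes at both ends. A single split of the 425 genes above background on chromosome 16 that best divides it into a lower and a higher part, by least absolute deviations from the medians of the parts, fell just before Riox2, a ribosomal oxygenase gene. It fell at the same gene when the members were left out, when any 1 mouse was left out and when probe sets of a gene were averaged. The 326 genes before it had a median difference of 0.06, and the 99 from it to the end had a median of 0.63, with 79 higher in pEGFR-Hi. The split was placed on these values, so the medians are a description.

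From Riox2 to the gene before Ncam2 lay 18 genes with a median of 0.91 and 16 of them were higher in pEGFR-Hi. They included the axon guidance receptors Robo1 and Robo2, neighbours on opposite sides. The pEGFR-Hi level of Robo1 was at least 3.37-fold higher and the pEGFR-Lo level of Robo2 at least 1.99-fold higher, each not above background in the other group. They also included the deubiquitinase gene Usp25 at 1.52. The 5 genes after Mx2 all differed in the same direction, from 0.45 for Prdm15 to 1.49 for A630089N07Rik, with a median of 1.17. All 49 genes from the split to the end that are no members had a median of 0.53. The 10 genes just before the split had a median of 0.18.

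**Figure D2:**
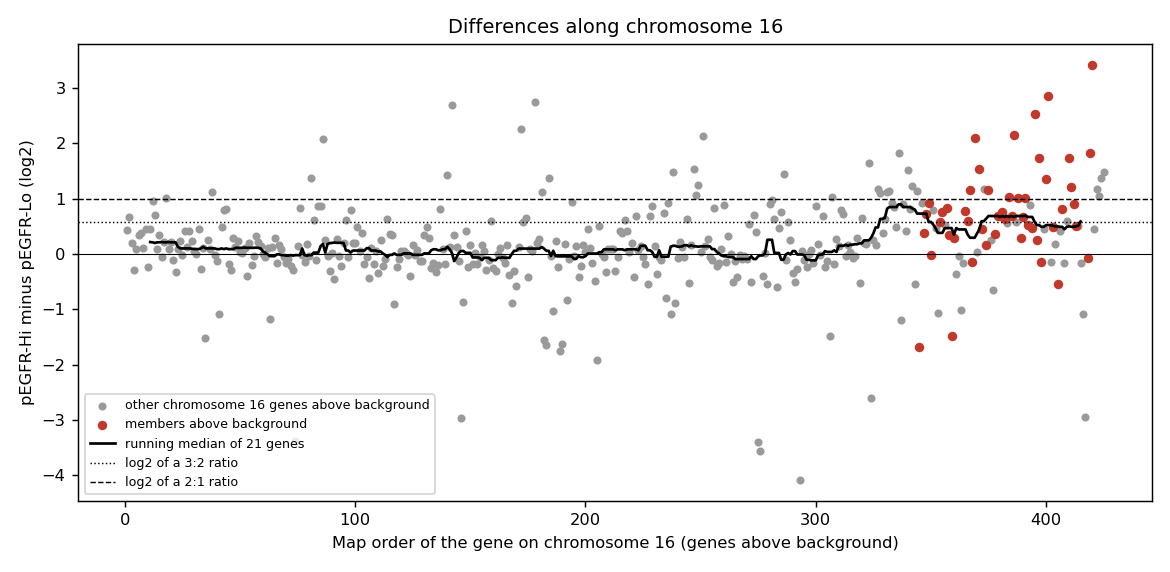
Difference between the group means (pEGFR-Hi minus pEGFR-Lo, log2, vertical axis) of the 425 chromosome 16 genes above background in map order (horizontal axis, rank along the chromosome); members are red, other genes grey, the black line is a running median of 21 genes, and dotted and dashed lines mark the log2 of a 3:2 and a 2:1 ratio. The running median stays near 0 over most of the chromosome and leaves it shortly before the first member.

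The stretch was then set beside the rest of the genome. The genes above background on all chromosomes were divided in map order into 665 blocks of 20 genes, and 5 blocks had a median difference of 0.5 or more. Of these 5 blocks 3 were on distal chromosome 16. The others were Cdc27 to Smarcd2 on chromosome 11, at 0.60, and Dcaf11 to Nynrin on chromosome 14, at 0.53. With a limit of 0.4 there were 14 blocks, 5 of them on chromosome 16. The highest of all 665, at 0.74, ran from Filip1l to Usp25 and held no member. The block from Ifngr2 to Morc3, with 16 members, was second at 0.68, and the other blocks of the stretch ranked 4, 6 and 12, the first of them with a median of 0.56, the next just under 0.5 and the last at 0.41. These blocks held 11 to 16 members each, which were chosen on this contrast, so their ranks are a description. Blocks on the opposite side existed as well: 10 had a median of -0.5 or lower, of which 4 were on chromosome 15 and 4 on chromosome X.

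**Figure D3:**
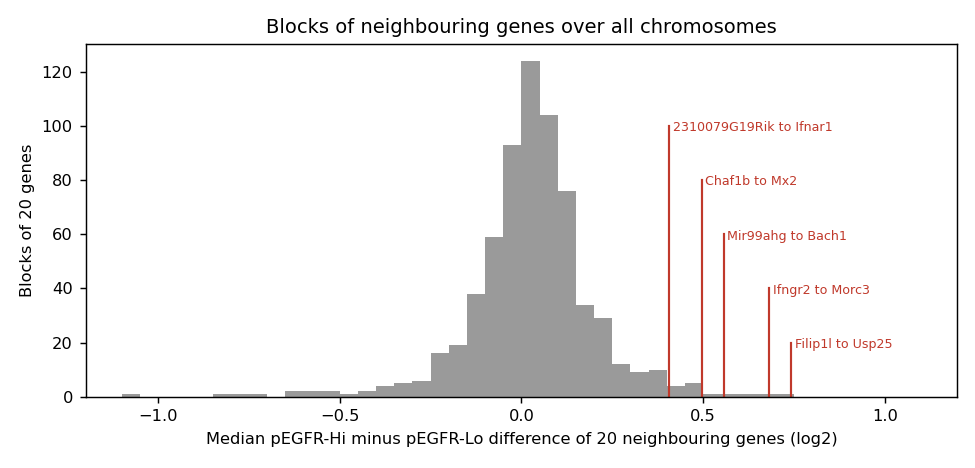
Number of blocks of 20 neighbouring genes above background (vertical axis) by their median pEGFR-Hi minus pEGFR-Lo difference (log2, horizontal axis), over all chromosomes; grey bars are all 665 blocks and red lines, with heights that carry no value, mark the 5 blocks of distal chromosome 16 by their first and last gene. The 5 marked blocks lie between 0.41 and 0.74, at the right edge of the distribution.

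Genes of human chromosome 21 that lie elsewhere in the mouse were set beside the members. These genes were not chosen on this contrast, though their lists were drawn up with earlier results of these data known. The members were chosen on it, so a gap between them is no result. Over all genes 3.99% were called higher in pEGFR-Hi and 5.06% lower. Above background were 28 of the 34 measured on chromosome 10 and 17 of the 20 measured on chromosome 17. The 34 measured genes on mouse chromosome 10 had a median difference of 0.04, with 1 gene called toward pEGFR-Hi and 2 toward pEGFR-Lo by limma. These were Icosl, which encodes a costimulatory ligand, at 1.11, the arginine methyltransferase gene Prmt2 at -1.16 and S100b, a glial calcium-binding protein gene, at -4.32. The 20 measured genes of the list for chromosome 17 had a median of 0.03, with 1 called lower in pEGFR-Hi, Pde9a, a cyclic GMP phosphodiesterase gene, at -3.02.

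The sizes were set against simple ratios of gene copies. Ratios of 4:3, 3:2, 2:1, 3:1 and 4:1 correspond to log2 differences of 0.41, 0.58, 1.0, 1.58 and 2.0. Of the 47 members above background in both groups, 13 were nearest to 3:2, 10 to 2:1, 7 to 4:3, 4 to 3:1 and 5 to 4:1, all toward pEGFR-Hi, and 5 were nearest to no change. The other 3, Ncam2, Map3k7cl and Ttc3, lay toward pEGFR-Lo. Among 13053 genes above background in both groups over the whole array, the shares toward pEGFR-Hi were 16.5% for 4:3, 7.29% for 3:2, 5.47% for 2:1, 2.15% for 3:1 and 0.97% for 4:1, and 41.7% were nearest to no change. Of 23 other genes of the stretch 7 were nearest to no change, 4 to 4:3, 5 to 3:2 and 3 to 2:1 toward pEGFR-Hi, and 4 lay toward pEGFR-Lo. Since the members were chosen on this contrast, their shares are a description.

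The members nearest to 3:2 were Atp5j, N6amt1, Ltn1, Tiam1, Sod1, Il10rb, Ifnar1, Ifngr2, Tmem50b, Son, Atp5o, Mrps6 and Hmgn1, which lie from one end of the stretch to the other. The nearest ratio depends on the probe set: Ltn1 had 16 probe sets, at 0.51 to 1.16, and Dyrk1a, nearest to 2:1, had another at 0.13. Those nearest to 4:1 were Mis18a, Donson, Runx1, Chaf1b and Mx2. Apart from Hlcs and Mx1, members next to them differed less, from -0.14 for Hunk to 1.53 for Urb1, both beside Mis18a. Hlcs, beside Chaf1b, and Mx1, beside Mx2, were at least 1.37-fold and 2.48-fold higher in pEGFR-Hi. No single ratio covered the members, since differences of -1.69 to 3.42 were seen along 1 stretch. The 3.42 is that of Mx2, whose pEGFR-Lo median of 4.04 was not above background, so its place among the ratios is uncertain. The 8 members with a mean level of 9 or more differed by a median of 0.63 with quartiles of 0.48 and 0.74. The 21 members between background and 7 had a similar median, 0.69, and wider quartiles of 0.29 and 1.53. Array ratios are compressed at low signal, and neither the number of gene copies nor the share of cells carrying them was measured, so a fit of these sizes to copy number was not tested.

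Members that are parts of a complex or pathway were compared with their partners encoded outside the stretch. Beside every count of called partners stand the shares over all genes, 3.99% called higher in pEGFR-Hi and 5.06% called lower. For groups that did not overlap these shares were 12.2% and 11.1%. The partners of Atp5j and Atp5o, 13 genes of the ATP synthase and its inhibitor, had a median difference of -0.10, with differences of -0.30 to 0.19 and no gene called. The 7 other subunits of the CCT chaperonin, the barrel in which Cct8 folds actin and tubulin, had a median of -0.02, a range from -0.43 for Cct5, with all pEGFR-Lo mice above all pEGFR-Hi mice, to 0.15 for Cct4, and none called. For Psmg1, whose work is to start the assembly of proteasomes, the 4 other assembly chaperones had differences of -0.18 to 0.07. The members were chosen for higher levels in pEGFR-Hi and the partners were not, so a partner below its member is no result. The partner lists were also drawn up with earlier results of these data known.

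In mitochondrial ribosomes and purine synthesis the partners were spread more widely and toward pEGFR-Hi. The 28 other genes of the mitochondrial small ribosomal subunit had a median of 0.17 and reached 0.64 for Mrps7, above the 0.52 of Mrps6, with none called. The 10 other purine enzymes had a median of 0.41, and 9 were higher in pEGFR-Hi, led by Ppat, which catalyses the committed step, at 0.73, against 1.03 for Gart. None of the 10 was called. The 10 superoxide and peroxide enzymes other than Sod1 had a median of -0.21, and Sod3, the extracellular dismutase, was called lower in pEGFR-Hi at -1.59.

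Partners of Chaf1b and Mis18a were mostly on the same side as these members. Of 4 partners of Chaf1b and Mis18a, 3 were called higher in pEGFR-Hi by limma. These were Oip5, a Mis18 complex member, at 1.48, Chaf1a, the large subunit of CAF-1, at 1.46 and the histone chaperone Asf1b at 1.24, while Rbbp4, a histone-binding protein of many complexes, was at 0.23. Chaf1b and Mis18a themselves were at 2.85 and 2.09. Of the partners of Gabpa, Gabpb2 was called higher at 1.03 and Gabpb1 was at -0.03. The 8 other core-binding and ETS genes beside Runx1 and Ets2 had a median of -0.24, with 5 lower in pEGFR-Hi, 4 of these with all pEGFR-Lo mice above all pEGFR-Hi mice, and none called. The 10 genes that process the amyloid precursor had a median of -0.41 and 1 called lower, the precursor relative Aplp1, at -1.18. Of 14 endocytic partners of Itsn1 and Synj1, 2 were called lower, Amph and Sh3gl2, at -2.21 and -1.22, and the median was -0.27.

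**Figure D4:**
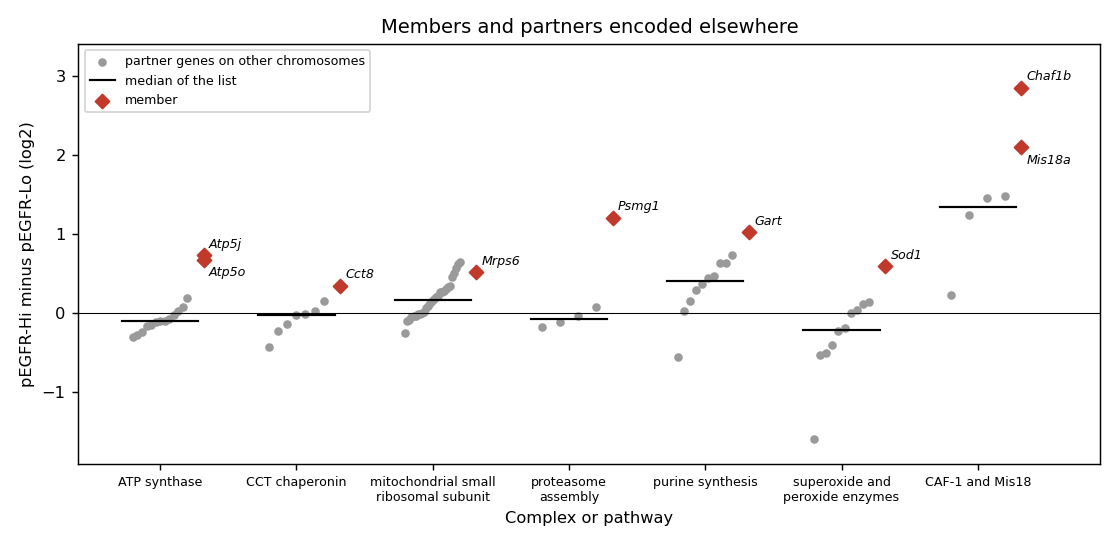
Difference between the group means (pEGFR-Hi minus pEGFR-Lo, log2, vertical axis) of 9 members (red diamonds) and of their partner genes on other chromosomes (grey points, with the median as a black bar) for 7 complexes or pathways (horizontal axis). Partners of Atp5j, Atp5o and Psmg1 lie between -0.30 and 0.19 and those of Cct8 between -0.43 and 0.15, and the partners of Chaf1b and Mis18a are mostly above 1.

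The mean of 48 members above background, without Mx1 and Mx2, was nearly the same in each mouse of a group. Relative to the mean of all genes above background it was 0.94 to 0.98 in pEGFR-Hi mice, with a mean of 0.96 ± 0.014 (SD, n = 6). In pEGFR-Lo mice it was 0.19 to 0.31, with a mean of 0.23 ± 0.049 (SD, n = 6). The groups did not overlap. The members were chosen on this contrast, and a mean over 48 genes narrows the spread of any set. Neither the gap nor the narrow spread is a result about the members. Single members spread about as other genes did: the median SD of these members was 0.14 in pEGFR-Hi and 0.19 in pEGFR-Lo, against 0.17 and 0.19 over all genes above background. The widest of the 48 was Cbr1 in pEGFR-Lo, with an SD of 0.72.

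Mx1 and Mx2 had the widest spread of the members in pEGFR-Hi mice, with SDs of 0.68 and 0.94. In pEGFR-Lo mice Mx2 was again the widest, with an SD of 0.92, while the 0.33 of Mx1 was exceeded by Cbr1, Ncam2, Runx1, Paxbp1 and Map3k7cl. Mx1 was 4.57 to 6.30 in pEGFR-Hi mice, with a median of 5.43, and 3.16 to 4.10 in pEGFR-Lo mice, with a median of 3.57, so that in pEGFR-Lo it was not above background. Mx2 was 6.38 to 8.77 in pEGFR-Hi mice, with a median of 7.90, and 3.41 to 5.44 in pEGFR-Lo mice, with a median of 4.04. In both genes the groups were separate. For Mx1 the pEGFR-Hi level was at least 2.48-fold higher, and Mx2 differed by 3.42 ± 0.44 (SE), or 10.7-fold. The Mx2 ratio is limited by background, since pEGFR-Lo replicates 3, 5 and 6 and the pEGFR-Lo median were not above it. The pEGFR-Lo mean of Mx2, 4.29, rested on replicates 1 and 2, at 5.44 and 5.38.

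Among pEGFR-Hi mice Mx1, Mx2 and the mean of other interferon-stimulated genes were all highest in replicate 5 and lowest in replicate 6. In pEGFR-Lo mice Mx1 was not above background. There Mx2 was 4.17 in replicate 4 and 5.44 in replicate 1, at similar means of those genes, 7.52 and 7.42. Of 35 listed genes of that kind 31 were measured. All 31 had higher means in pEGFR-Hi, 24 were called by limma, where 3.99% of all genes were, and the median difference was 1.66. The list was drawn up with earlier results of these data known, so these numbers are a description. Their mean level was 8.33 to 9.26 in pEGFR-Hi mice. In pEGFR-Lo mice it was 7.18 to 7.55 in 4 mice and lower, at 5.89 and 5.80, in replicates 3 and 6, which also had the lowest Mx2 values, both 3.41. Of 12 partners that carry signals from the interferon receptors, 4 were called higher in pEGFR-Hi: the deconjugase Usp18 at 2.33, the transcription factor Irf9 at 1.49, its partner Stat2, which was 2.83-fold higher, and the inhibitor Socs3 at 1.46. Usp18, Stat2 and Irf9 also stand in the list of interferon-stimulated genes. Ifngr1, the partner chain of Ifngr2 on another chromosome, was at 0.27, and the kinases Jak1, Tyk2 and Jak2 were at 0.20, 0.18 and 0.10. The part of the interferon genes in the differences of Mx1 and Mx2 was not tested. Without Mx1 and Mx2 the members above background had the same median, 0.69.

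**Figure D5:**
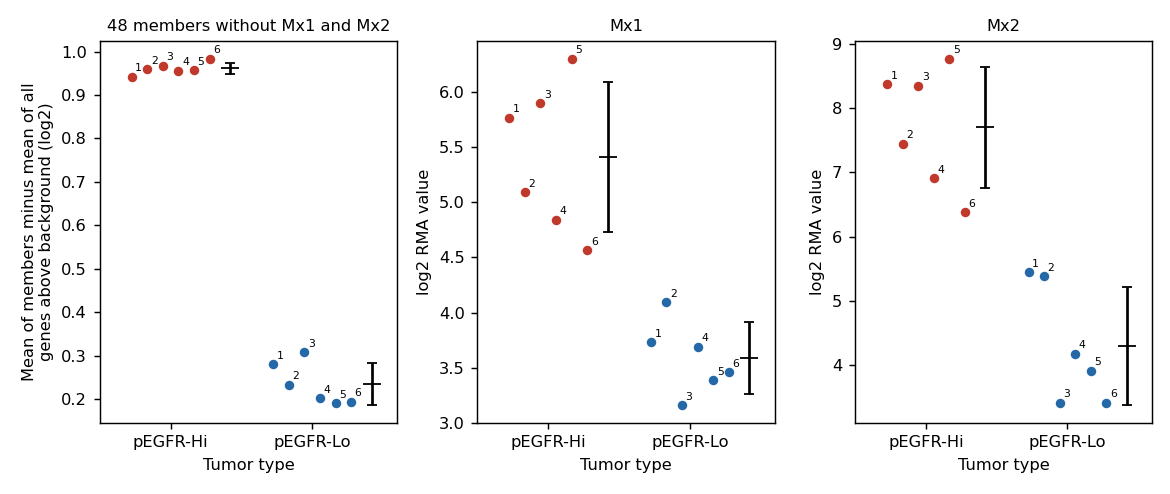
Left, mean log2 level of 48 members without Mx1 and Mx2 minus the mean of all genes above background, per mouse; middle and right, log2 RMA values of Mx1 and Mx2 per mouse. Red points are pEGFR-Hi and blue points pEGFR-Lo mice, numbers are replicates, and black bars are the group mean ± SD (n = 6). The 48 members form narrow groups at 0.96 and 0.23, while Mx1 and Mx2 spread widely, with pEGFR-Lo replicates 3 and 6 lowest for Mx2.

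Short stretches of promoter sequence are shown for the members that held a match to the core of the binding site of E2F factors, which drive genes of DNA replication, because Chaf1b and Donson work in replication and had large differences. The letters GCGGGAA were searched on both strands from 250 bases before to 50 after each annotated start in RefSeq (GRCm38.p6), a motif chosen after the values were known. Of 45 members with a promoter entry 4 held it, 8.89%, against 5.29% of 27025 genes. Each line gives 30 bases of the gene's own strand, 5′ to 3′, with the match in capitals.
Chaf1b, first site: tcctccgaggcGCGGGAAtgggattcccag
Chaf1b, second site: gcctgcggcgcGCGGGAAgctgcgggctgt
Donson: ggccggggcgcGCGGGAAgccccggcaggg
Scaf4: agccgcaaccgGCGGGAAagcgcgcgacaa
Atp5j: ctcccctcggcTTCCCGCacagcctctccc
The Chaf1b sites lie at chr16:93883663-93883692 and chr16:93883916-93883945 on the plus strand. The others lie on the minus strand, at chr16:91688739-91688768 for Donson, chr16:90284608-90284637 for Scaf4 and chr16:84835712-84835741 for Atp5j. In Atp5j the letters are those of the opposite strand. Mis18a and Runx1, which had differences close to that of Donson or above it, had no match in their windows, and the 4 genes with a match differed by 0.73 to 2.85. A match is a stretch of letters and not a measured site.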

How the data were processed

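Tumor cells of 12 mice, 6 per tumor type, were profiled on Affymetrix Mouse Gene 1.0 ST arrays. The authors deposited log2 values made with RMA in Affymetrix Expression Console, which corrects background, normalizes quantiles across arrays and summarises each probe set. The version and the genome build behind the array annotation are not given in the sources used here. Of 35556 probe sets, 21789 had 1 gene symbol and were used, 1621 had several and 12146 had none. For a gene with several probe sets the brightest was used. Map order came from RefSeq (GRCm38.p6). The members and all lists were chosen with earlier results of these data known, as was the choice of genes to name: every member, and of each partner list up to 3 called genes per direction with the largest difference. A gene named beyond these was picked after its values were seen. All 19938 genes were fitted with limma 3.58.1 (lmFit, eBayes) in R 4.3.3, which was tested on simulated data, and genes were called at 2-fold or more with p adjusted by Benjamini-Hochberg under 0.01. Alternatives were SAM at a 1% false discovery rate, other normalizations and filters, a replicate block and leaving out each array. Precision is limited by the number of arrays. Differences are pEGFR-Hi minus pEGFR-Lo. Figures were drawn with matplotlib 3.10.9.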

Additional observations from a re-analysis of the deposited data

Results flagged for a closer look

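In 6 of the 102 groups of 6 mice that the 51 members form, 1 mouse stood so far from the other 5 that its gap to the nearest exceeded 0.625 of the range of the group. Chance gives about 1 in 20 such groups, so this number is close to what chance gives. In pEGFR-Hi replicate 3, Atp5j was at 10.73 with the others at 10.61 to 10.64, and its overlapping neighbour Gabpa was at 8.78 with the others at 8.47 to 8.51. Ets2 was low in the same mouse, at 8.58 with the others at 8.93 to 9.11. App in pEGFR-Hi replicate 1 was at 9.37 with the others at 9.67 to 9.83. Ifngr2 in pEGFR-Lo replicate 1 was at 8.51 with the others at 8.70 to 8.77, and Son in pEGFR-Lo replicate 5 was at 7.67 with the others at 8.13 to 8.29.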

How the results depend on the processing

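No called member changed direction under any of the 21 alternatives. With an adjusted p under 0.05 and no fold limit, 42 members and 3871 of all genes were called higher in pEGFR-Hi, and 3314 genes higher in pEGFR-Lo. When probe sets of 1 gene were averaged, the other genes between Ncam2 and Mx2 had a median of 0.18. Leaving out both pEGFR-Lo mice with low interferon genes, an alternative chosen after seeing the data, gave a median of 0.18 for those genes and 1.08 for the genes after Mx2. Leaving out 1 mouse at a time gave member medians of 0.67 to 0.73, medians of 0.16 to 0.26 for the other genes and of 1.12 to 1.24 for the genes after Mx2, with 14 to 16 and 2 to 2 members called and 774 to 846 and 991 to 1031 of all genes called. The calls of 3 members sit at the 2-fold limit: Cryzl1 lost its call in 7 settings, Slc5a3 in 5 and Gart in 1. Mice with the same replicate number did not deviate together, with correlations of -0.18 to 0.12 and 1 of 6 mice closest to its own number. With the replicate block, 16 and 2 members and 801 and 1008 genes were called. Genes with overlapping annotated spans, such as Son and Donson, may share signal, and differences near background are bounds.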
